A study of Mus musculus with 13 samples.

Results

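The kinesin genes are described here, taken as every gene whose symbol is Kif followed by a number and an optional letter. The rule gave 37 genes among the 18193 that the arrays measure with a probe set naming exactly 1 gene. Each gene was read from the probe set with the highest mean over all arrays. They were sorted by known role into 11 spindle kinesins, 15 transport kinesins, 5 ciliary and centriolar kinesins and 6 remaining kinesins. The spindle kinesins were then set against the transport kinesins across normal adrenal gland and 3 kinds of mouse neuroblastoma.

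Kinesins are motor proteins that burn ATP to walk along microtubules or to take them apart. The spindle kinesins are made mostly by dividing cells, where they separate the poles, move chromosomes and finish cell division. The transport kinesins carry vesicles, mitochondria and other cargo along axons and dendrites, and neurons hold several of them at high levels. Neuroblastoma is a childhood tumour of the sympathetic nervous system, which derives from the neural crest and whose cells can both divide and carry neuronal traits.

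RNA was taken from mice of the C57BL/6 background strain. Tumours came from animals transgenic for mutated ALK, a receptor tyrosine kinase (mutALK, n = 3 arrays), for the transcription factor MYCN (n = 4), or for MYCN and mutated ALK together (double transgenic, n = 3), and normal adrenal gland was the control (n = 3). The transgenes were expressed specifically in the neural crest, tumours were taken once palpable, and no age is given. The double transgenic arrays are numbered apart from all others in the series, and whether they were run together with them is not known here. In their comparisons, genotype and a possible difference between runs cannot be told apart. Because 2 mutALK and 2 MYCN arrays share a number in their titles and nothing says that each array is another animal, the p-values speak only to the scatter among these arrays, part of which may be technical.

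All values are on the log2 scale, so that 1 unit is a doubling of signal, and levels are compared between arrays, never between genes. Differences are the first group minus the second ± standard error. A gene was called different at a Benjamini-Hochberg adjusted p under 0.05 over all 18193 genes in limma. Where 3 values are given together without a group name, they are for the mutALK, the MYCN and then the double transgenic group, each against adrenal gland. In whole tissue, fewer cells of a type and less RNA per cell cannot be told apart.

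The labelled tissues were checked against marker genes. All 9 adrenal cortex markers were lower in every kind of tumour, with array means of 11.40 to 12.80 in adrenal gland and 4.98 to 6.80 in the tumours. The mean over 12 neuron markers was 11.12 to 12.45 in the tumours. In adrenal gland it was 6.99 in array 1, 10.51 in array 2 and 6.15 in array 3. Adrenal array 2 also stood apart in liver markers, at 11.10 against 5.53 and 5.65, and in fat cell markers, at 13.43 against 11.73 and 11.76. Kidney markers were at 6.10 there against 4.64 and 4.70, and Schwann cell markers at 8.64 against 6.38 and 6.22. Liver markers averaged above 8 in mutALK 1 and 3, MYCN 2 and double transgenic 1 as well. Mycn read 12.03 ± 0.33 (SD) in mutALK, 6.35 ± 0.86 in MYCN, 10.19 ± 0.64 in double transgenic tumours and 7.69 ± 0.92 in adrenal gland, and Alk read 8.79 ± 0.33, 9.44 ± 0.34, 9.11 ± 0.37 and 5.17 ± 0.29. Whether these probe sets read the transgenes is not given, so they do not check the labels.

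Against adrenal gland, spindle kinesins rose in all 3 kinds of tumour, while transport kinesins split into some that rose and some that fell. In mutALK tumours 24 of the 37 kinesins were called, where 42.2% of all genes were, and in MYCN tumours 21 of 37, where 50.2% were. In double transgenic tumours 23 of 37 were called, where 48.6% of all genes were. The kinesins called were 64.9%, 56.8% and 62.2% of the family, so the family as a whole lay not far above those shares, and its parts differed more. Of the 11 spindle kinesins 9, 10 and 9 rose, where 21.3%, 25.4% and 24.3% of all genes rose, and in limma 0 were lower, also at an unadjusted p under 0.05. Of the 15 transport kinesins, 7 rose and 3 fell in mutALK, 2 rose and 5 fell in MYCN, and 5 rose and 4 fell in the double transgenic group, where 21%, 24.8% and 24.2% of all genes fell. The transport kinesins called were 66.7%, 46.7% and 60% of the 15, against 42.2%, 50.2% and 48.6% of all genes. In MYCN tumours the transport share thus lay below that of all genes. The 3 comparisons share the adrenal arrays.

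The median difference of the spindle kinesins was 2.30, 3.76 and 3.11. That of the transport kinesins was 0.30, -0.19 and 0.14, and that of all genes was 0.00, -0.02 and -0.03. Every MYCN array lay above every adrenal array in 10 spindle and 2 transport kinesins, where 26.8% of all genes did, and below them in 0 and 4, where 26.7% did. The double transgenic arrays lay above them in 10 spindle and 5 transport kinesins, where 26.5% of all genes did, and below them in 0 and 4, where 26.7% did. For mutALK these counts were 10 and 6 above, where 24% of all genes did so, and 0 and 3 below, where 24.1% did. Without adrenal array 2 the spindle counts were the same, and the transport kinesins called were 10, 9 and 12. Without the 5 arrays high in liver markers, which leaves mutALK with 1 array, 8, 9 and 9 spindle kinesins were called.

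**Figure D1:**
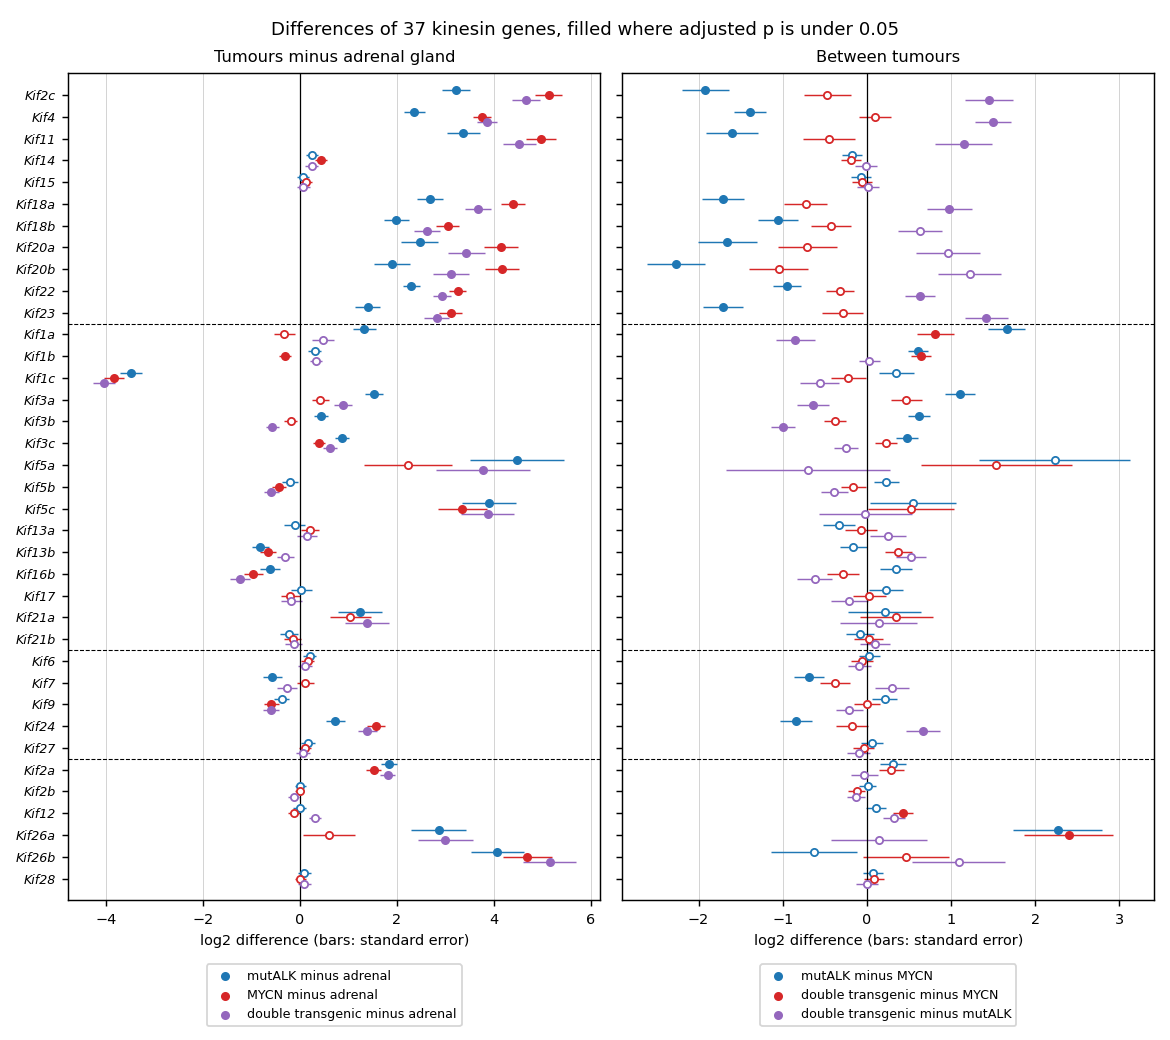
Log2 differences of the 37 kinesin genes (bars: standard error), against adrenal gland on the left and between tumours on the right, with filled points where the adjusted p was under 0.05. Dashed lines part the spindle, transport, ciliary and remaining kinesins from top to bottom; 9 spindle kinesins lie far to the right of 0 in all 3 tumours, and the transport kinesins lie on both sides.

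Kif2c, which takes microtubules apart at the centromere and so frees wrongly attached chromosomes, had the largest rise of the spindle kinesins in MYCN and double transgenic tumours, while in mutALK Kif11 rose more. Its level was 5.66, 5.37 and 5.96 in the adrenal arrays and 8.60, 8.39 and 9.62 in mutALK. It was 10.66, 10.88, 10.99 and 10.65 in MYCN and 10.49, 10.56 and 9.91 in double transgenic tumours. Every tumour lay above every adrenal array, every MYCN tumour above the other tumours, and every mutALK tumour below them. The differences from adrenal gland were 3.21 ± 0.29, 5.13 ± 0.28 and 4.66 ± 0.29 (adjusted p = 9.27e-06, 1.24e-07 and 5.43e-07). The MYCN difference is a ratio of 35.1.

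Kif11, the motor that slides spindle microtubules apart and the target of mitotic kinesin inhibitors, followed closely. It was at 5.55, 4.96 and 5.86 in adrenal gland and at 8.68, 8.18 and 9.63 in mutALK. MYCN tumours had 10.23, 10.51, 10.66 and 10.32, and double transgenic tumours had 10.16, 10.18 and 9.61. MYCN arrays were again the highest, and mutALK 3, the highest mutALK array, reached the lowest double transgenic array. It rose by 3.37 ± 0.34, 4.97 ± 0.31 and 4.52 ± 0.34 (adjusted p = 1.6e-05, 2.95e-07 and 1.29e-06). All 3 probe sets of Kif11 were called higher in each comparison.

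Kif18a and Kif22, which act at the kinetochore and on chromosome arms, had the same order of group means, from adrenal gland through mutALK and double transgenic tumours to MYCN. Kif18a, which damps chromosome movements at the metaphase plate, was at 4.54, 4.44 and 4.56 in adrenal gland and at 6.74, 7.12 and 7.76 in mutALK. It was at 8.61, 9.07, 9.15 and 8.82 in MYCN and at 8.51, 8.37 and 7.66 in double transgenic tumours. The adrenal arrays lay close together and all 10 tumours far above them, and double transgenic 3 fell below mutALK 3, with rises of 2.69 ± 0.27, 4.40 ± 0.25 and 3.67 ± 0.27 (adjusted p = 1.65e-05, 1.79e-07 and 1.21e-06). Kif22, a chromokinesin that pushes chromosome arms away from the poles, was at 8.43, 8.57 and 8.52 in adrenal gland and at 10.53, 10.59 and 11.32 in mutALK. It was at 11.60, 11.88, 11.83 and 11.72 in MYCN and at 11.40, 11.60 and 11.32 in double transgenic tumours. Its rises were 2.30 ± 0.18, 3.25 ± 0.17 and 2.93 ± 0.18 (adjusted p = 3.66e-06, 1.12e-07 and 5.21e-07), and the MYCN and double transgenic arrays met at 11.60. Kif22 and Kif4 have near-identical copies in the mouse genome, which their probe sets may not tell apart.

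Kif4, a chromokinesin that also shapes the central spindle with Prc1, was the spindle kinesin whose mean was highest in double transgenic tumours. Its levels there were 9.69, 9.67 and 9.35, against 9.34, 9.49, 9.53 and 9.50 in MYCN. In mutALK they were 8.0, 7.71 and 8.51, and in adrenal gland 5.45, 5.59 and 6.08. Double transgenic and MYCN arrays overlapped, while mutALK lay between them and adrenal gland. Kif4 rose by 2.36 ± 0.21, 3.76 ± 0.19 and 3.86 ± 0.21 (adjusted p = 7.29e-06, 1.05e-07 and 2.47e-07).

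The kinesins of the cleavage furrow and the midbody rose as well. Kif20a, which brings the chromosomal passenger complex to the central spindle, was at 6.05, 5.24 and 6.26 in adrenal gland and at 7.97, 7.96 and 9.04 in mutALK. It was at 9.88, 10.13, 10.00 and 9.94 in MYCN and at 9.74, 9.59 and 8.50 in double transgenic tumours. The MYCN arrays lay close together and double transgenic 3 fell below mutALK 3. Its rises were 2.47 ± 0.38, 4.14 ± 0.35 and 3.43 ± 0.38 (adjusted p = 0.000279, 2.04e-06 and 1.74e-05).

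Kif20b, a related motor needed late in cytokinesis, was at 6.04, 5.26 and 6.37 in adrenal gland and at 7.80, 7.10 and 8.45 in mutALK. It was at 9.90, 10.22, 10.23 and 9.88 in MYCN and at 9.09, 9.50 and 8.42 in double transgenic tumours. MYCN lay above both other kinds of tumour in every array. Kif20b rose by 1.89 ± 0.37, 4.16 ± 0.35 and 3.11 ± 0.37 (adjusted p = 0.00165, 1.88e-06 and 3.44e-05). In mutALK 2, the only mutALK array without high liver markers, the difference was 0.89 from the adrenal arrays without them, and the call was lost (adjusted p = 0.161).

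Kif23, which with Racgap1 forms the centralspindlin complex, had the smallest rise in mutALK among the 9 spindle kinesins called there. It was at 6.46, 6.09 and 6.40 in adrenal gland, at 7.33, 7.49 and 8.33 in mutALK, at 9.22, 9.56, 9.49 and 9.44 in MYCN and at 9.29, 9.44 and 8.68 in the double transgenic group. The groups lay apart except that MYCN and double transgenic tumours overlapped, with rises of 1.40 ± 0.26, 3.11 ± 0.24 and 2.82 ± 0.26 (adjusted p = 0.00109, 1.14e-06 and 5.12e-06). Kif18b, which trims astral microtubules, rose from 5.48 to 6.28 in adrenal gland to 7.49 to 8.44 in mutALK, 8.57 to 9.10 in MYCN and 8.39 to 8.65 in the double transgenic group.

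Kif14 and Kif15 stood outside this pattern. Kif14, a cytokinesis motor, has 1 probe set, whose mean lay at percentile 4.31 of all genes. It read 2.83 to 3.09 in adrenal gland and 3.13 to 3.58 in MYCN tumours (0.43 ± 0.12, adjusted p = 0.0109), a call lost without the arrays high in liver markers (0.30, 0.168). Kif15, which backs up Kif11 in holding the spindle bipolar, also has 1 probe set and read 5.10 to 5.61 on all 13 arrays, with no call in any comparison. No other probe set was there to check either gene. Over all 24 probe sets of the spindle kinesins, 17, 21 and 21 were called higher, and 0 were called lower.

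**Figure D2:**
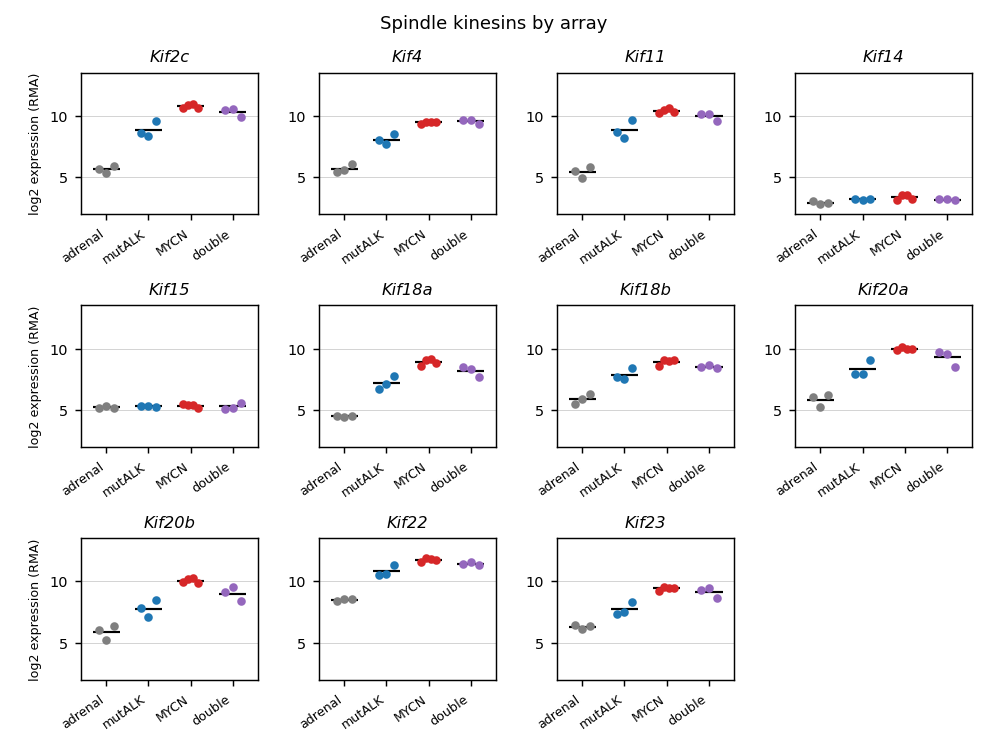
Log2 level of each spindle kinesin on each array (points) with the group mean (line), by group. In 10 of 11 genes every tumour lay above every adrenal array, and 10 of 11 have their highest mean in MYCN; Kif14 and Kif15 stay near 3 and 5.

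In 10 of the 11 spindle kinesins all 10 tumours lay above all 3 adrenal arrays, where 15.5% of all genes did, and in 2 of the 15 transport kinesins, Kif3c and Kif5c. All tumours lay below all adrenal arrays in 0 spindle and 2 transport kinesins, Kif1c and Kif16b, where 16.3% of all genes did. In 9 of 11 the means rose in the order adrenal gland, mutALK, double transgenic, MYCN, where 11.5% of all genes did. Within groups the spindle kinesins leaned on certain arrays. In mutALK, array 3 was the highest in 9 of 11, and in double transgenic tumours array 3 was the lowest in 10 of 11. Double transgenic 3 also had the largest excess of 3' over 5' signal among the tumours in both control transcripts, 0.77 for Gapdh and 1.07 for beta actin, a sign of RNA quality whose part in these levels was not tested.

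The promoters of the spindle kinesins were read from RefSeq windows of mouse build GRCm38.p6, which run from 250 bases before to 50 bases after each gene's start. Windows were at hand for 31 of the 37 kinesins, and Kif13b, Kif20a, Kif21b, Kif28, Kif5a and Kif5b had none. The stretches below run from 100 bases before the start to 25 after it. They show the spindle kinesins with the letters of the cell cycle genes homology region there (CHR, TTTGAA or TTCGAA on either strand), followed by Kif18a, which rose as much without them. CHR letters and the CCAAT box (CCAAT on either strand) are in capitals.
Kif11, chr19:37376282-37376406, plus strand: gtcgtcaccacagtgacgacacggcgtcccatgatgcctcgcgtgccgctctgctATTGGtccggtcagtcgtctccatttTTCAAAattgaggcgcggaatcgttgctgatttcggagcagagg
Kif22, chr7:127042396-127042520, minus strand: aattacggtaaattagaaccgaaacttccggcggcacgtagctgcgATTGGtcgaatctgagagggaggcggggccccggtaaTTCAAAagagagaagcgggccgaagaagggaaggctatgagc
Kif4, chrX:100625965-100626089, plus strand: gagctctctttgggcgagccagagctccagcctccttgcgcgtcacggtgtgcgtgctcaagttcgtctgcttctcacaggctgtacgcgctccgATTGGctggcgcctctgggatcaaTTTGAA
Kif23, chr9:61946775-61946899, minus strand: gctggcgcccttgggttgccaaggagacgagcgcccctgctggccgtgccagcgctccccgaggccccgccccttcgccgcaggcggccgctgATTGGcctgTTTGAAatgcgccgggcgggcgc
Kif18b, chr11:102925100-102925224, minus strand: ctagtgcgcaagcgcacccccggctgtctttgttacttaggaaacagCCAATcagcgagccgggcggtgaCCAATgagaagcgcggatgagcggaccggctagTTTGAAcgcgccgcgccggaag
Kif20b, chr19:34922258-34922382, plus strand: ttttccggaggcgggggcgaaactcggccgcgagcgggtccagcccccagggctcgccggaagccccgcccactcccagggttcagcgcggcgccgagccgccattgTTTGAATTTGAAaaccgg
Kif15, chr9:122950981-122951105, plus strand: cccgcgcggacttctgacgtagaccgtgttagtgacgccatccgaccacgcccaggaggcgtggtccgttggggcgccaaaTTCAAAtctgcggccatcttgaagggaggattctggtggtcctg
Kif18a, chr2:109280638-109280762, plus strand: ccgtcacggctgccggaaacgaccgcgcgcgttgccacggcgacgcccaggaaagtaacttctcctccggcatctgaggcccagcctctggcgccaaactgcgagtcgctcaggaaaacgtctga

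The CHR letters occurred in 9 of 10 spindle windows, where 15.1% of all 18109 windows hold them, and in Kif11, Kif22, Kif15, Kif4, Kif23, Kif18b and Kif20b they lay near the start. Counted from the start, whose first base is 1 and the base before it -1, they began at -19 in Kif11 and Kif15, at -17 in Kif22, at 3 in Kif23, at 4 in Kif18b, at 8 in Kif20b and at 20 in Kif4. In Kif2c they began at -103 and in Kif14 at -228. CHR and CCAAT letters occurred together in 6 of 10 spindle windows, where 5.97% of all windows hold both, and in 0 of 13 transport windows. The E-box CACGTG, the letters that MYC family factors bind, occurred in 0 of 10 spindle windows, 1 of 13 transport windows and 8.72% of all windows. Kif18a rose by 4.40 in MYCN tumours without CHR letters in its window. Kif15 holds them and was not called, but its only probe set could not be checked against another. A match describes the letters and shows no binding.

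The genes of proteins that work with the spindle kinesins rose too. All 14 of a list of partners rose in each kind of tumour, where 21.3%, 25.4% and 24.3% of all genes did, with medians of 2.66, 4.20 and 3.82. In MYCN tumours the largest rises were those of Plk1, a mitotic kinase (4.89 ± 0.22, adjusted p = 5.96e-08), Birc5 (4.74 ± 0.25, 1.11e-07) and Aurkb (4.67 ± 0.34, 7.19e-07) of the chromosomal passenger complex, and Mki67, a proliferation marker (4.50 ± 0.25, 1.53e-07). Of the kinesins with other names, Cenpe, which brings chromosomes to the metaphase plate, rose by 2.70 ± 0.29, 4.40 ± 0.27 and 3.60 ± 0.29, and Kifc1, which focuses spindle poles, by 2.25 ± 0.22, 4.27 ± 0.20 and 3.20 ± 0.22. Kifc1 shares near-identical sequence with Kifc5b.

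Among the transport kinesins, the neuronal heavy chains of kinesin-1 had the largest rises and the widest spread in adrenal gland. Kif5c was at 8.09, 10.50 and 7.57 in adrenal gland and at 12.56, 12.75 and 12.54 in mutALK. It was at 12.22, 11.94, 12.11 and 12.00 in MYCN and at 12.52, 12.67 and 12.59 in double transgenic tumours. All tumours lay above all adrenal arrays, adrenal array 2 lay apart from the other 2, and MYCN tumours lay below the other tumours. Kif5c rose by 3.90 ± 0.55, 3.35 ± 0.51 and 3.87 ± 0.55 (adjusted p = 0.000163, 0.000179 and 0.000114), and by 4.79, 4.24 and 4.76 without adrenal array 2.

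Kif5a, the heavy chain found mainly in neurons, was at 6.22, 10.44 and 5.39 in adrenal gland and at 12.14, 11.92 and 11.39 in mutALK. It was at 10.13, 9.24, 9.60 and 9.36 in MYCN and at 10.79, 11.06 and 11.49 in double transgenic tumours. Adrenal array 2 lay above every MYCN tumour and below every other tumour. Kif5a rose by 4.47 ± 0.97 in mutALK (adjusted p = 0.00286) and 3.77 ± 0.97 in double transgenic tumours (0.00662), and the MYCN difference of 2.23 ± 0.90 was not called (0.0593). Without adrenal array 2 the MYCN difference was 3.78 and called (3.54e-06). Kif5a has 3 probe sets, and both dimmer ones were also called higher in mutALK. In MYCN 1 dimmer probe set was called higher. In double transgenic tumours neither dimmer one was called, and differences ran from 0.04 to 3.77, so that call held for the brightest probe set only. Adrenal array 2 exceeded the next adrenal array by over 1 unit in 5 kinesins, Kif5a, Kif5c, Kif26b, Kif21a and Kif26a. It is also the adrenal array with the highest means of neuron, liver, fat cell, kidney and Schwann cell markers, whose part in these levels was not tested.

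Kif5b, the kinesin-1 heavy chain of most tissues, went the other way. It was 11.12 to 11.82 in adrenal gland, 11.20 to 11.50 in mutALK, 11.03 to 11.19 in MYCN and 10.86 to 11.03 in the double transgenic group. It fell in MYCN (-0.43 ± 0.15, adjusted p = 0.0316) and in double transgenic tumours (-0.59 ± 0.16, 0.00931). The MYCN call was lost without MYCN 2, 3 or 4 or adrenal 1 or 3 (adjusted p from 0.06 to 0.15, differences from -0.43 to -0.29), and both were lost when each array was centred on its median. The mutALK difference was called without adrenal array 2 (-0.42, 0.0126).

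The kinesin-3 motors diverged. Kif1a, which carries synaptic and dense core vesicle precursors, was at 6.40, 7.10 and 6.35 in adrenal gland and at 8.07, 8.02 and 7.75 in mutALK. It was at 6.69, 6.18, 6.13 and 6.16 in MYCN and at 6.74, 7.18 and 7.36 in double transgenic tumours. Only the mutALK arrays lay clear of adrenal gland, with a rise of 1.33 ± 0.23 (adjusted p = 0.000722). The differences in MYCN (-0.32 ± 0.22, 0.253) and double transgenic tumours (0.48 ± 0.23, 0.113) were not called, the latter becoming 0.72 and called without adrenal array 2 (0.0151) and 0.66 and called without double transgenic 1 (0.0486). A dimmer Kif1a probe set was called higher in MYCN, by 1.08 ± 0.18, so the gene's probe sets disagreed there.

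Kif1c, a widely expressed motor of Golgi and cell-edge traffic, had the largest fall of any kinesin. It was at 10.64, 10.44 and 10.97 in adrenal gland and at 7.35, 7.28 and 6.95 in mutALK. It was at 6.52, 6.69, 7.03 and 7.15 in MYCN and at 7.06, 6.44 and 6.39 in double transgenic tumours. Every tumour lay more than 3 units below every adrenal array, and the 3 kinds of tumour overlapped. The differences were -3.49 ± 0.23, -3.84 ± 0.21 and -4.05 ± 0.23 (adjusted p = 1.07e-06, 1.4e-07 and 3.05e-07), the last a ratio of 16.6, and all 4 probe sets of Kif1c were called lower in each comparison. Adrenal cortex markers were lower beside it in all 3 kinds of tumour, by a median of 6.63, 6.73 and 6.15 units, and their part in the fall of Kif1c was not tested.

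Kif16b, which moves early endosomes, fell in all 3 kinds of tumour. It was at 8.07, 8.16 and 8.30 in adrenal gland, at 7.48, 7.86 and 7.35 in mutALK, at 6.90, 7.28, 7.41 and 7.28 in MYCN and at 7.27, 7.05 and 6.49 in the double transgenic group. No tumour reached the adrenal arrays, with differences of -0.62 ± 0.21, -0.96 ± 0.19 and -1.24 ± 0.21 (adjusted p = 0.0319, 0.00134 and 0.000394). The mutALK call was lost without mutALK 1 or 3 or any adrenal array (adjusted p from 0.0502 to 0.114, differences from -0.67 to -0.51). Kif13b, a motor of polarity and membrane cargo, was at 8.29, 7.76 and 8.64 in adrenal gland and at 7.44, 7.34 and 7.45 in mutALK. It was at 7.61, 7.52, 7.55 and 7.59 in MYCN and at 7.95, 8.04 and 7.81 in double transgenic tumours. It fell by 0.82 ± 0.18 in mutALK (adjusted p = 0.00274) and by 0.66 ± 0.16 in MYCN (0.0051). The double transgenic difference of -0.30 ± 0.18 was called when adrenal array 2 was left out (-0.53, 0.00316). In mutALK no dimmer Kif13b probe set was called, and in MYCN 2 were called lower. The mean over its probe sets was lower in mutALK (-0.47, adjusted p = 0.0116 in limma).

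The heterotrimeric kinesin-2 motors, which serve axons and the building of cilia, had their highest means in mutALK. Kif3a was at 7.91, 8.35 and 7.87 in adrenal gland and at 9.96, 9.57 and 9.19 in mutALK. It was at 8.64, 8.26, 8.57 and 8.37 in MYCN and at 8.88, 8.94 and 8.97 in double transgenic tumours. The mutALK arrays were the highest and the MYCN arrays overlapped adrenal array 2. Kif3a rose by 1.53 ± 0.19 in mutALK (adjusted p = 7.86e-05) and 0.89 ± 0.19 in double transgenic tumours (0.00238). The MYCN difference of 0.42 ± 0.18 (0.0769) was called without mutALK 1, mutALK 3 or adrenal 2, at 0.42 to 0.57.

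Kif3c, which pairs with Kif3a in neurons, was at 8.63, 8.63 and 8.94 in adrenal gland and at 9.54, 9.63 and 9.63 in mutALK. It was at 9.36, 9.13, 9.06 and 8.95 in MYCN and at 9.26, 9.22 and 9.57 in double transgenic tumours. All tumours lay above all adrenal arrays, MYCN 4 only just, with rises of 0.87 ± 0.14, 0.39 ± 0.13 and 0.62 ± 0.14 (adjusted p = 0.000368, 0.0237 and 0.00276). The MYCN call was lost without MYCN 1, adrenal 1 or adrenal 2 (adjusted p from 0.0647 to 0.089, differences of 0.31 to 0.34).

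Kif3b, the other partner of Kif3a, was the only member called in opposite directions against adrenal gland. It was at 7.45, 7.03 and 7.47 in adrenal gland and at 7.66, 7.66 and 7.93 in mutALK. It was at 7.19, 7.20, 7.19 and 6.94 in MYCN and at 6.60, 6.81 and 6.84 in double transgenic tumours. Every mutALK array lay above, and every double transgenic array below, the adrenal arrays. Against adrenal gland it was higher in mutALK (0.43 ± 0.14, adjusted p = 0.03) and lower in double transgenic tumours (-0.57 ± 0.14, 0.00608). Among its 4 probe sets, 1 dimmer one was also called higher in mutALK and 1 lower in double transgenic tumours. Over the mean of its probe sets the mutALK difference was 0.23 and not called (adjusted p = 0.107 in limma). The brightest probe set gave 0.20 without the arrays high in liver markers, on 1 mutALK array. The mutALK call was lost without mutALK 3 or adrenal 2 (0.34 and 0.29, adjusted p = 0.115 and 0.102), without adrenal 2 the MYCN difference was called (-0.33, 0.0455), and both calls were lost after renewed quantile normalization or median centring.

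Kif21a, which restrains microtubule growth in axons, was at 8.40, 10.57 and 8.33 in adrenal gland and at 10.28, 10.56 and 10.19 in mutALK. It was at 10.44, 10.18, 10.02 and 9.90 in MYCN and at 10.39, 10.63 and 10.42 in double transgenic tumours. Adrenal array 2 lay among the tumours and the other 2 adrenal arrays well below them. Kif21a rose by 1.24 ± 0.46 in mutALK (adjusted p = 0.049) and 1.38 ± 0.46 in double transgenic tumours (0.0272), and the MYCN difference was 1.04 ± 0.43 (0.0668). Without adrenal array 2 they were 1.98, 2.12 and 1.77, all called, while the mutALK call was lost without any of the other 12 arrays (adjusted p from 0.0593 to 0.187, differences from 0.86 to 1.32) and the double transgenic call without any of 5 others (0.0521 to 0.112, differences from 1.0 to 1.43), namely adrenal 1, adrenal 3 and the 3 double transgenic arrays.

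Kif13a, Kif17 and Kif21b, motors of endosomes, dendrites and microtubule plus ends, were not called in any comparison, but Kif13a was lower in mutALK than in MYCN when mutALK 1 was left out (-0.60, adjusted p = 0.0119). Kif1b, which carries mitochondria and vesicle precursors, depended on the probe set. Its brightest probe set differed from adrenal gland by 0.30 ± 0.13 in mutALK, -0.31 ± 0.12 in MYCN and 0.33 ± 0.13 in the double transgenic group, of which the MYCN value was called (adjusted p = 0.0496) and lost that call without any of 8 arrays (0.0531 to 0.196, differences from -0.35 to -0.20), namely mutALK 1, MYCN 2, 3 and 4, adrenal 2 and 3 and double transgenic 2 and 3. Without adrenal array 2 the mutALK difference was called (0.41, 0.0202), and without adrenal array 2 or double transgenic 1 the double transgenic one was (0.41 to 0.44, 0.0125 to 0.0376). Of its 7 probe sets, 4 were called lower in double transgenic tumours, the furthest by 1.72 ± 0.18 (adjusted p = 1.53e-05) and 1.65 ± 0.27 (0.000324). The mean over its probe sets was lower in double transgenic tumours (-0.70, 0.000251), against the sign of the brightest.

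**Figure D3:**
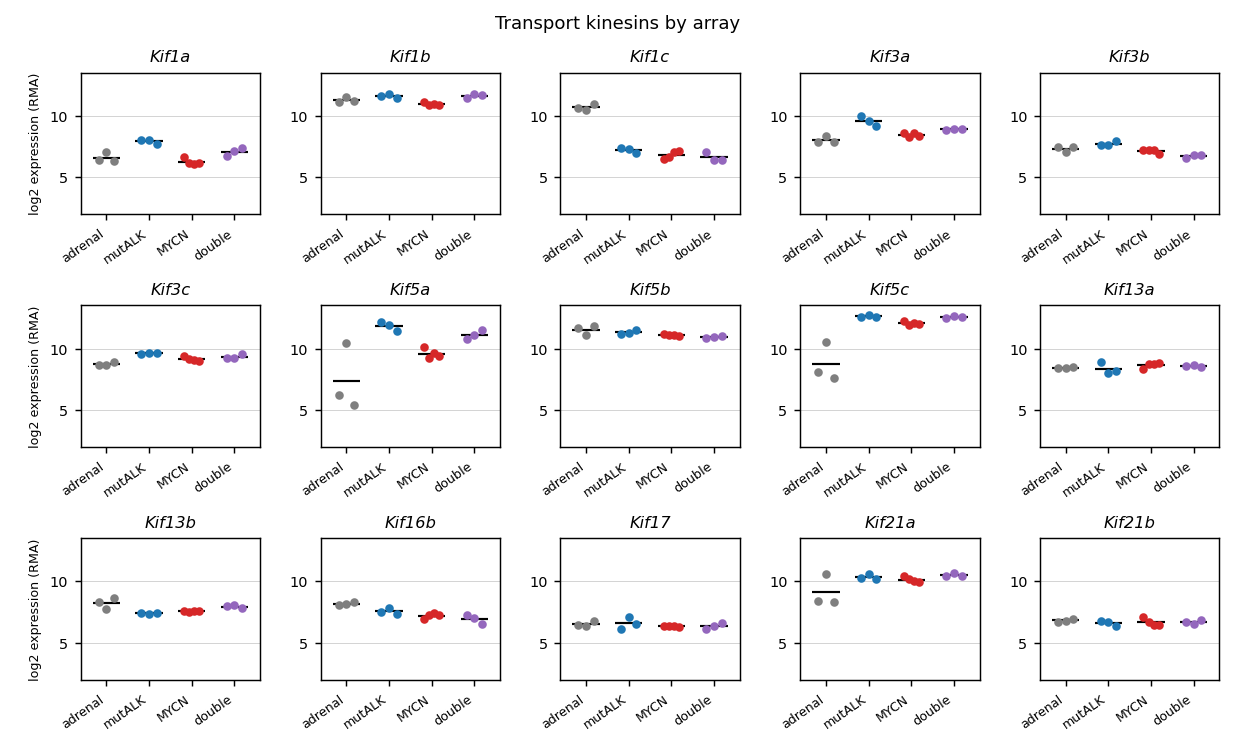
Log2 level of each transport kinesin on each array (points) with the group mean (line), by group. Kif5a, Kif5c and Kif21a are high in the tumours and in adrenal array 2, Kif1c is lower in all 10 tumours, and Kif13a, Kif17 and Kif21b lie level.

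**Figure D4:**
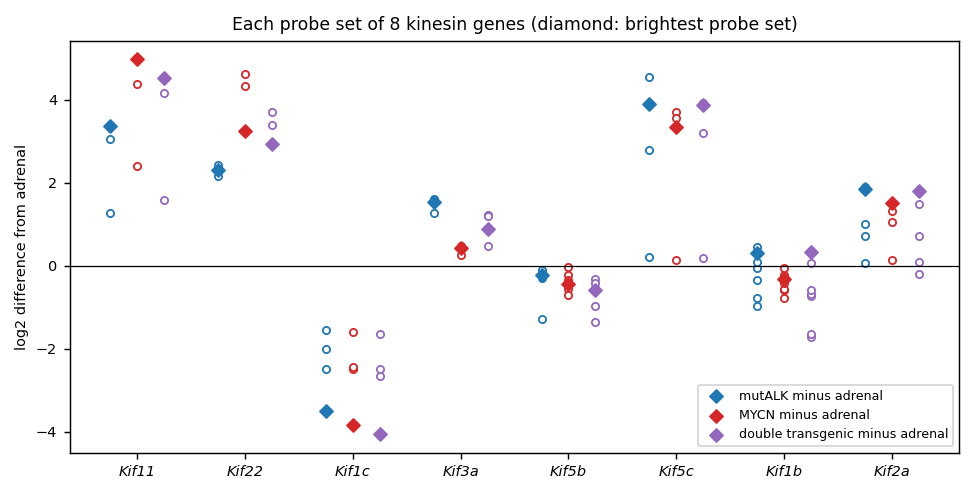
Log2 difference from adrenal gland of every probe set of 8 kinesin genes in the 3 kinds of tumour, with a diamond for the brightest probe set. The probe sets of Kif11, Kif22, Kif1c and Kif3a keep 1 sign in each tumour, and those of Kif1b lie on both sides of 0 in double transgenic tumours, from 0.33 to -1.72.

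Probe sets of Kif5a, Kif5b, Kif2a and Kif13b also spread in double transgenic tumours. Those of Kif13b ran from -1.64 to 0.04 against adrenal gland, and 1 of the dimmer ones was called lower. A dimmer Kif5b probe set was lower by 1.36 ± 0.23 there (adjusted p = 0.000406), against 0.59 ± 0.16 for the brightest, and a dimmer Kif2a probe set was at -0.19 ± 0.20 (0.496), against a rise of 1.81 ± 0.16 for the brightest. The excess of 3' over 5' signal in the Gapdh control was 0.43 to 0.77 in double transgenic tumours, 0.18 to 0.22 in mutALK, 0.17 to 0.35 in MYCN and 0.06 to 0.50 in adrenal gland. For beta actin it was 0.71 to 1.07, 0.54 to 0.60, 0.61 to 0.70 and 0.66 to 1.46. The value of 1.46 was that of adrenal array 2. The part of RNA quality in the probe sets' disagreement was not tested.

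Promoter stretches of 3 transport kinesins are shown for contrast with the spindle kinesins, Kif5c as a large rise, Kif1c as the largest fall and Kif3a as a moderate rise. None holds the CHR letters, and Kif3a holds a CCAAT box, in capitals.
Kif5c, chr2:49619186-49619310, plus strand: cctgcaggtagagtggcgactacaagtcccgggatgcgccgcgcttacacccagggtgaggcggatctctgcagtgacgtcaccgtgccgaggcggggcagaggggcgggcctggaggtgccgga
Kif1c, chr11:70700448-70700572, plus strand: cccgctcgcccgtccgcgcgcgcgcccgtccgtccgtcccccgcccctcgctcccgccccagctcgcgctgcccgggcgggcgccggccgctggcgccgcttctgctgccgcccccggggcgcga
Kif3a, chr11:53567269-53567393, plus strand: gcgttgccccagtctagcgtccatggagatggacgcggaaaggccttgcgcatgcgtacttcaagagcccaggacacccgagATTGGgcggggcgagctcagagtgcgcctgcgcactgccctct

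CHR letters occurred in 1 of 13 windows of 11 transport kinesins, in a second start of Kif1a, which is 7.69% against 15.1% of all windows. CCAAT letters occurred in 4 of the 13, in Kif3b, Kif3a and both starts of Kif1b.

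Light chains and adaptors, which tie the transport kinesins to cargo, rose more often than they fell. Of 14 light chains, adaptors and regulators measured, 11 rose and 1 fell in mutALK, 6 rose and 2 fell in MYCN, and 10 rose and 1 fell in the double transgenic group, where 21.3%, 25.4% and 24.3% of all genes rose and 21%, 24.8% and 24.2% fell. Grip1, an adaptor of Kif5 in dendrites, rose by 3.37 ± 0.23, 4.04 ± 0.21 and 3.52 ± 0.23, and Fez1, an axonal adaptor, by 3.03 ± 0.60, 3.07 ± 0.56 and 3.50 ± 0.60. Klc1, the neuronal light chain, was at 7.76, 12.31 and 7.55 in adrenal gland, where array 2 lay far above the other 2. It rose by 3.62 ± 0.94 in mutALK and 3.23 ± 0.94 in double transgenic tumours, and its MYCN difference was 1.76 ± 0.88 (adjusted p = 0.122). Without adrenal array 2 the Klc1 differences were 5.18, 3.32 and 4.78, all called (adjusted p = 2.7e-08, 3.13e-07 and 4.51e-08). Klc4, another light chain, fell by 0.67 ± 0.20, 1.87 ± 0.19 and 1.0 ± 0.20. Cytoplasmic dynein and dynactin, the motor that walks the other way, had 14 of 20 measured subunits and partners higher in mutALK, 2 higher and 3 lower in MYCN, and 9 higher and 1 lower in the double transgenic group. These are 70%, 25% and 50% of the 20, where 42.2%, 50.2% and 48.6% of all genes were called.

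Of the ciliary and centriolar kinesins, Kif24 rose in all 3 kinds of tumour by its brightest probe set. Neither dimmer probe set was called in mutALK or double transgenic tumours, and 1 was called higher in MYCN. Over the mean of its probe sets the differences were 0.28, 0.74 and 0.63, and the mutALK one was not called (adjusted p = 0.0942 in limma). Kif24, which trims centriolar microtubules and holds back cilium growth, was at 6.17, 6.21 and 5.88 in adrenal gland and at 6.59, 6.51 and 7.33 in mutALK. It was at 7.68, 7.66, 7.69 and 7.61 in MYCN and at 7.33, 7.76 and 7.35 in double transgenic tumours. All tumours lay above adrenal gland, mutALK 3 the highest of its group, with rises of 0.73 ± 0.20, 1.57 ± 0.19 and 1.39 ± 0.20 (adjusted p = 0.0118, 2.72e-05 and 0.000129). The mutALK value of Kif24 was 0.47 without mutALK 3 and still called (0.0309), and 0.49 and not called without the arrays high in liver markers (0.137).

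Kif7, which acts at the ciliary tip in Hedgehog signalling, was at 6.74, 6.51 and 6.84 in adrenal gland and at 6.12, 6.37 and 5.89 in mutALK. It was at 6.60, 6.92, 7.09 and 6.63 in MYCN and at 6.33, 6.16 and 6.80 in double transgenic tumours. Only mutALK lay clear of adrenal gland, by -0.57 ± 0.20 (adjusted p = 0.0346), a call lost without mutALK 1 or 3 or adrenal 1 or 3 (0.0741 to 0.129, differences from -0.57 to -0.45). Kif9, of motile cilia, was at 5.14, 5.32 and 4.88 in adrenal gland and at 4.79, 4.69 and 4.72 in mutALK. It was at 4.28, 4.44, 4.72 and 4.63 in MYCN and at 4.39, 4.33 and 4.83 in double transgenic tumours. It fell by 0.59 ± 0.15 in MYCN (0.00647) and by 0.60 ± 0.16 in double transgenic tumours (0.00999), both calls lost without the arrays high in liver markers (-0.47 and -0.43, adjusted p = 0.111 and 0.177). In mutALK its difference was called without adrenal 3 or double transgenic 3 (-0.50 to -0.38, adjusted p from 0.0436 to 0.0476). Kif6 and Kif27 were not called.

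The remaining kinesins held the largest difference of all. Kif26b, a kinesin without known motor activity that is needed for kidney development, was at 4.34, 6.65 and 3.81 in adrenal gland and at 9.19, 8.89 and 8.92 in mutALK. It was at 10.01, 9.35, 9.74 and 9.40 in MYCN and at 10.21, 10.21 and 9.85 in double transgenic tumours. Every tumour lay more than 2 units above every adrenal array. Kif26b rose by 4.07 ± 0.55, 4.69 ± 0.51 and 5.15 ± 0.55 (adjusted p = 0.000121, 1.35e-05 and 1.4e-05), the last a ratio of 35.6, and by 4.92, 5.55 and 6.01 without adrenal array 2.

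Kif26a, its relative, known for restraining neurotrophic signalling in enteric neurons, was at 7.94, 9.13 and 6.69 in adrenal gland and at 9.96, 10.91 and 11.48 in mutALK. It was at 9.12, 7.71, 8.89 and 8.35 in MYCN and at 10.99, 10.96 and 10.82 in double transgenic tumours. Both groups with mutated ALK lay above all other arrays and MYCN overlapped adrenal gland. Kif26a was higher by 2.86 ± 0.57 in mutALK (adjusted p = 0.00167) and by 3.0 ± 0.57 in the double transgenic group (0.000933), against 0.60 ± 0.53 in MYCN (0.396). The Kif26a value in MYCN moved with the adrenal arrays, to 1.20 without adrenal array 2 (adjusted p = 0.061) and -0.02 without adrenal array 3 (0.98).

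Kif2a, which takes microtubules apart at spindle poles and in growing axon branches, was at 8.50, 8.90 and 8.31 in adrenal gland and at 10.58, 10.17 and 10.47 in mutALK. It was at 10.16, 10.10, 10.10 and 10.01 in MYCN and at 10.39, 10.19 and 10.57 in double transgenic tumours. All tumours lay more than 1 unit above adrenal gland, with rises of 1.84 ± 0.16, 1.52 ± 0.15 and 1.81 ± 0.16 (adjusted p = 7.2e-06, 6.63e-06 and 4.2e-06). Kif2b, Kif12 and Kif28 were not called against adrenal gland and read at most 4.84 on any array, though Kif12 was called higher in the double transgenic group without MYCN 1, adrenal 1 or double transgenic 3 (0.31 to 0.40, adjusted p from 0.041 to 0.0499).

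Kif24 and Kif26b also hold CHR letters near the start, at -26 and -9, as does Kif27, which was not called against adrenal gland, at -89 and -73. The stretches of Kif24 and Kif26b show CHR and CCAAT letters in capitals.
Kif24, chr4:41464824-41464948, minus strand: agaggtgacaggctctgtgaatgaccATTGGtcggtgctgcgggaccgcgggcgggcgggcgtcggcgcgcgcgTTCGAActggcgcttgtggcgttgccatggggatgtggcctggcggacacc
Kif26b, chr1:178529025-178529149, plus strand: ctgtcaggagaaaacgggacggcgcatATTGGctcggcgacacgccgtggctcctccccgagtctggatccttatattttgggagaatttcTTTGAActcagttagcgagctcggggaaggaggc

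Between the tumours, spindle kinesins parted mutALK from MYCN. Over all kinesins 17 of 37 were called there, where 30.8% of all genes were, 6 higher and 11 lower in mutALK. All 9 spindle kinesins other than Kif14 and Kif15 were lower in mutALK, where 17.2% of all genes were, and in all 9 every mutALK array lay below every MYCN array, where 21.6% of all genes did. The median spindle difference was -1.60, that of the 15 transport kinesins 0.35 and that of all genes 0.00. Kif20b differed most (-2.27 ± 0.35, adjusted p = 0.000617), followed by Kif2c (-1.92 ± 0.28, 0.000398), Kif18a (-1.71 ± 0.25, 0.000495), Kif23 (-1.71 ± 0.24, 0.00038), Kif20a (-1.66 ± 0.35, 0.00391), Kif11 (-1.60 ± 0.31, 0.0026) and Kif4 (-1.39 ± 0.19, 0.000337). Of the 14 partners 12 were lower in mutALK, with Plk1 at -2.41 ± 0.22 in front.

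Transport kinesins went the other way in the same comparison, with 5 of 15 higher in mutALK, where 13.6% of all genes were. In limma 0 were lower, and at an unadjusted p under 0.05, 6 were higher and 0 lower. In 8 of the 15 every mutALK array lay above every MYCN array, where 19% of all genes did. The 5 called were Kif1a (1.66 ± 0.22, adjusted p = 0.000236), Kif3a (1.11 ± 0.18, 0.00085), Kif3b (0.62 ± 0.13, 0.00453), Kif1b (0.61 ± 0.12, 0.00262) and Kif3c (0.48 ± 0.13, 0.0148). The dimmer Kif1a probe set was at 0.05 and was not called. The Kif3c call was lost without mutALK 2 (0.46, 0.0516). Median centring of each array left 3 called, losing Kif3b and Kif3c. The brightest probe set of Kif5a was not called, while both dimmer ones were called higher, with a lowest difference of 0.41. Kif5a differed by 2.23 ± 0.90, which was called without adrenal array 2 (0.000193) or adrenal array 3 (0.045), since the adrenal arrays share in the estimate of spread, as were Kif5c (0.55, 0.00691) and Kif26b (-0.63, 0.0244) without adrenal array 2. Kif26a was higher in mutALK by 2.27 ± 0.53 (0.00702), Kif24 lower by 0.84 ± 0.19 (0.00525) and Kif7 lower by 0.69 ± 0.18 (0.0142; 0.57 lower and not called without mutALK 3, 0.0605). Kifap3, the non-motor subunit that joins Kif3a and Kif3b, was higher in mutALK by 1.68 ± 0.31, and 13 of 20 dynein and dynactin genes were higher and 1 lower.

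Double transgenic tumours lay between the other 2 in spindle kinesins and nearer to MYCN. Against MYCN 4 of 37 kinesins were called, where 12.8% of all genes were. By the brightest probe set, none of the 11 spindle kinesins was called in limma, where 6.66% of all genes were lower. At an unadjusted p under 0.05, 2 were lower, and the median was -0.43, with a range from -1.05 for Kif20b to 0.10 for Kif4. Of all 24 spindle probe sets 4 were called lower, in Kif22, Kif2c and Kif20b, and 0 higher, with a range from -1.9 to 0.29. The mean over its probe sets was called lower in Kif22 (-0.72, adjusted p = 0.0389). In 6 of the 11 every double transgenic array lay below every MYCN array, where 16.2% of all genes did. In 9 of the 11 the double transgenic mean lay between those of mutALK and MYCN. The kinesins called were all higher, where 6.16% of all genes were: Kif26a (2.40 ± 0.53, adjusted p = 0.014), Kif1a (0.81 ± 0.22, 0.0331), Kif1b (0.64 ± 0.12, 0.00693) and Kif12 (0.43 ± 0.12, 0.0408). Of the other Kif1b probe sets 2 were called lower in this comparison, so that its call held for the brightest probe set only. The dimmer Kif1a probe set was at -0.37 and not called, and the mean over the Kif1a probe sets was 0.22 (adjusted p = 0.531 in limma). The Kif1a call was lost without MYCN 2, 3 or 4 or double transgenic 2 or 3 (0.0825 to 0.132, differences from 0.67 to 0.77), and the Kif12 call without any of 8 arrays, mutALK 2 and 3, MYCN 2, 3 and 4 and the 3 double transgenic ones (0.0507 to 0.119, differences from 0.37 to 0.50). The count of 4 became 9 without adrenal array 2, with calls gained by Kif5a (1.54, 0.00521), Kif5c (0.52, 0.0181), Kif13b (0.37, 0.0264), Kif3b (-0.38, 0.0343) and Kif20b (-1.05, 0.0408). The 4 probe sets of Kif13b ran from -0.89 to 0.37 on all arrays, and 1 of the dimmer ones was called lower. Without mutALK 3, Kif18a was called lower (-0.73, 0.0459).

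Against mutALK 10 of 37 kinesins were called in double transgenic tumours, where 14.4% of all genes were, 7 higher and 3 lower. Spindle kinesins made up 6 of the 7, where 8.39% of all genes were higher, with a median of 0.98. Kif4 was higher by 1.50 ± 0.21 (adjusted p = 0.00232), Kif2c by 1.45 ± 0.29 (0.0101), Kif23 by 1.42 ± 0.26 (0.0066), Kif11 by 1.15 ± 0.34 (0.0423), Kif18a by 0.98 ± 0.27 (0.0356) and Kif22 by 0.63 ± 0.18 (0.0425). Kif24 was higher by 0.67 ± 0.20 (0.0478). The calls of Kif11, Kif18a, Kif22 and Kif24 were lost when any of 9, 5, 11 and 11 of the 13 arrays was left out, with differences of 0.83 to 1.15, 0.74 to 0.98, 0.49 to 0.69 and 0.52 to 0.74. In Kif4, Kif2c and Kif23 every double transgenic array lay above every mutALK array, where 16.9% of all genes did, and in Kif11, Kif18a and Kif22 the groups met or overlapped. With arrays that share a title number as a random block, 4 of the 10 calls were made, those of Kif4, Kif2c, Kif23 and Kif3b, so that 3 spindle kinesins were called.

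Of the transport kinesins 3 were lower than in mutALK, where 6.04% of all genes were, and in 5 every double transgenic array lay below every mutALK array, where 16% of all genes did. Kif3b was lower by 1.0 ± 0.14 (adjusted p = 0.00263), with its groups well apart. Kif1a was lower by 0.85 ± 0.23 (0.0337) and Kif3a by 0.64 ± 0.19 (0.047), calls lost without any of 4 and of 11 arrays (differences from -0.90 to -0.68 and from -0.66 to -0.45). The dimmer Kif1a probe set was at -0.42 and was not called. Without adrenal array 2 the count of 10 became 14, with calls gained by Kif20b, Kif26b, Kif13b and Kif5b. Kif18b and Kif20a were called higher without mutALK 3, at 0.91 (0.0251) and 1.31 to 1.34, the latter also without double transgenic 3, and Kif1c and Kif16b were called lower without double transgenic 1, at -0.78 (0.0477) and -0.79 (0.0436).

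Markers of other cells differed between double transgenic and mutALK arrays as well. In that comparison 6.04% of all genes were lower. Of 7 endothelial markers 5 were lower in the double transgenic group (median -2.05), their mean level being 4.88 to 5.52, against 6.30 to 7.08 in mutALK. Of 6 fibroblast markers 4 were lower (median -1.92), with mean levels of 6.83 to 8.69 against 8.73 to 10.24. Of 7 macrophage markers 3 were lower (median -1.09), at 7.95 to 8.87 against 9.32 to 10.07. Of 4 erythroid markers 2 were lower (median -2.53), at 4.84 to 5.11 against 5.71 to 9.04, the 9.04 being mutALK 2. Against MYCN, where the mean levels were 5.67 to 7.11 and 8.75 to 9.52, 5 endothelial and 3 fibroblast markers were lower in the double transgenic group. Of all genes 6.66% were lower in that comparison. Of 5 fat cell markers 3 were lower than in MYCN (median -3.59) and 1 was lower than in mutALK (median -0.83). The part of these cells in the kinesin differences was not tested.

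To set the spindle against the transport kinesins on each array, the mean of the 15 transport kinesins was taken from that of the 11 spindle kinesins, each measured from its adrenal mean. This gap was 0.20, -0.60 and 0.39 on the adrenal arrays and 1.18, 1.03 and 2.06 on the mutALK arrays. It was 3.0, 3.45, 3.39 and 3.29 in MYCN and 2.78, 2.78 and 2.27 in double transgenic tumours. The group means were 1.43 ± 0.55 (SD, n = 3) in mutALK, 3.28 ± 0.20 (n = 4) in MYCN and 2.61 ± 0.29 (n = 3) in the double transgenic group, against a spread of 0.52 among the adrenal arrays, and no array of 1 kind of tumour reached another kind. The gap is a description and was not tested, since the members were sorted by role with results known. Without the arrays high in liver markers the mutALK gap was 0.74, on 1 array. Neuron markers averaged 12.19 to 12.45 in mutALK, 11.12 to 11.45 in MYCN and 11.91 to 12.19 in the double transgenic group, and Schwann cell markers 6.08 to 8.12, 4.95 to 5.36 and 6.27 to 6.54. Their part in the gap was not tested.

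**Figure D5:**
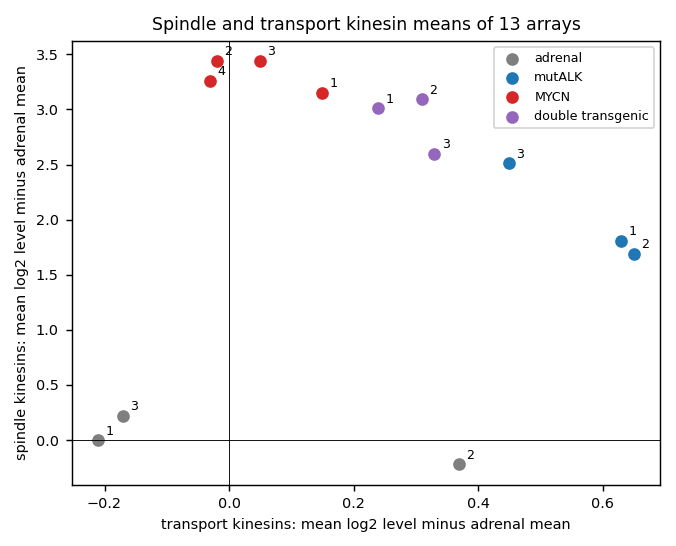
Mean log2 level of the 15 transport kinesins (x axis) and of the 11 spindle kinesins (y axis) on each array, both as the difference from the adrenal mean, with array numbers beside the points. MYCN tumours lie highest in spindle kinesins, mutALK tumours furthest right in transport kinesins with 1.03 to 2.06 between the 2 means, and double transgenic tumours lie between.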

How the data were processed

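RNA from 3 adrenal glands and 10 neuroblastomas had been hybridised to Affymetrix mouse arrays of 45101 probe sets. The deposited log2 values were made by the authors with RMA in Partek, per the submitters' processing notes; versions are not given in the sources used here, and detection calls were not used. RMA background-corrects, quantile-normalizes and summarises probes, so that array medians lay at 5.80 to 5.90. Probe sets with exactly 1 gene symbol (34958 before controls were excluded) gave 18193 genes, each read from its brightest probe set. With limma 3.58.1 in R 4.3.3, all 13 arrays entered a linear model with a mean for each group (9 residual and 2.28 prior degrees of freedom), and 6 contrasts were tested two-sided with Benjamini-Hochberg adjustment over all genes, no filter on dim genes being used. The fit was tested on simulated data.

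The kinesins and gene lists were chosen with earlier results of these data known. Values are given array by array for up to 8 spindle, 10 transport and 6 other kinesins with the largest called differences, and up to 4 called genes of each other list per comparison are named. Alternatives were other normalizations, probe set rules, a filter, variance models, array weights, fits of 2 groups, a block for shared title numbers and leaving out each array. Leaving out the 5 arrays high in liver markers was added after seeing the data. No depth applies to arrays, whose number limits the precision. Python 3.11.15 and matplotlib 3.10.9 drew the figures.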

Additional observations from a re-analysis of the deposited data

Results flagged for a closer look

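In a group of 4 arrays, an array stood apart where its gap to the nearest other array was above Dixon's critical share of the group's range. This was looked for in the 39 results with 4 MYCN arrays and found in 2, near the 5% that chance gives. Kif1a, the synaptic vesicle motor, read 6.69 in MYCN 1 against 6.13 to 6.18 in the other MYCN arrays. Kif3b, the kinesin-2 subunit, read 6.94 in MYCN 4 against 7.19 to 7.20 in the others.

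By its brightest probe set, Kif3b also differed from adrenal gland in opposite directions in mutALK and double transgenic tumours. It was 0.43 above adrenal gland in mutALK and at -0.57 in the double transgenic group, and the test of that difference gave -1.0 (adjusted p = 0.00263 in limma). Over the mean of the Kif3b probe sets the mutALK difference from adrenal gland was 0.23 and not called (adjusted p = 0.107 in limma). The cause of the Kif3b differences was not tested.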

How the results depend on the processing

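Of 24 counts and group values under 23 alternative settings (552 pairs), 490 stayed within 1.5 times the count or 1 SD of the value and 62 moved. Of 99 called kinesin differences, 68 were called under every alternative, and 39 of 123 others gained a call under at least 1. The sign reversed in 3, all in Kif1b with the mean of its probe sets, at -0.70 against adrenal gland, -0.29 against MYCN and -0.53 against mutALK in the double transgenic group.

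The gap between spindle and transport kinesins was 0.74 in mutALK without the arrays high in liver markers, 2.59 in MYCN and 2.14 in the double transgenic group with the mean of all probe sets, and 3.96 and 3.22 without the dimmest 40% of genes. Transport kinesins called were 11 for MYCN against adrenal gland with array weights and 3 for mutALK against MYCN after median centring.

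For double transgenic against MYCN, kinesins called were 2 with renewed quantile normalization, median centring or the title-number block, 10 with array weights and 9 in a fit of the 2 groups. Spindle kinesins called were 1 with the mean of probe sets, 2 with array weights and 1 in the fit of 2 groups. Transport kinesins called were 1 with quantile normalization, centring, the mean of probe sets or the block, and 6 with array weights or 2 groups. Leaving out 1 array gave 2 to 9 kinesins, 0 to 1 spindle and 1 to 6 transport kinesins.

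For double transgenic against mutALK, kinesins called were 6 after centring, 3 in the fit of 2 groups and 4 with the block, and spindle kinesins 1 and 3 in the latter settings. Transport kinesins called were 1 after centring, with 2 groups, with the block and without the arrays high in liver markers. Leaving out 1 array gave 4 to 14 kinesins, 3 to 9 spindle and 1 to 5 transport kinesins. The cause of these shifts was not tested. No paired analysis was possible because the labels give the groups no shared replicate numbers. Probe sets near background, such as those of Kif14, limit what can be read of small differences.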
